A study of Mus musculus with 12 samples.

Results

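The immediate early and Klf genes examined here are Fos, Jun, Junb, Egr1, Ier2, Ier3, Atf3, Klf6, Klf10 and Myc, chosen by symbol. Of these 10 genes, 9 were analysed, among 12284 named genes in mouse liver, and Ier3 was not analysed here. Their RNA levels come from poly(A) RNA-seq of 12 libraries, 6 of the control genotype (WT) and 6 of the double knockout (DKO), with deletion of Acly and Acss2 in hepatocytes. Mice of either group were Acly f/f; Acss2 f/f, with floxed alleles of each gene. At 6 to 8 weeks of age they received an adeno-associated virus of serotype AAV8 with the hepatocyte promoter TBG, which drove Cre in DKO (AAV8-TBG-Cre) and GFP in WT (AAV8-TBG-GFP). All mice went onto a Western diet (Teklad TD.88137) 1 week after injection and stayed on it for 6 weeks, and the liver was freeze-clamped at collection. Liver cells in which TBG is silent keep both genes, and the groups differed in Cre and GFP as well as in the deletion, so these cannot be told apart.

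Immediate early genes are transcribed within minutes of a stimulus, without new protein synthesis, through kinases of the MAPK pathways and the serum response factor and its ETS partners. Their products are mostly transcription factors: Fos and Jun proteins pair into AP-1, and Egr1, Klf6 and Klf10 bind GC-rich DNA through zinc fingers. In liver the same genes are known for their response to injury, partial hepatectomy, feeding and tissue handling.

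RefSeq promoter windows were at hand for 6 of the 10 genes, matched by symbol. They are given for Fos, as the archetype of the class, and for Jun and Klf6, which had the smallest p-values of the 9 genes. Each runs over the 250 bases before the annotated start, 5′ to 3′ on the strand of the gene, in build GRCm38.p6: chr12:85473640-85473889 on the plus strand for Fos, chr4:95052223-95052472 on the minus strand for Jun, and chr13:5861239-5861488 on the plus strand for Klf6. Capitals mark matches, on either strand, to the letters searched.
Fos: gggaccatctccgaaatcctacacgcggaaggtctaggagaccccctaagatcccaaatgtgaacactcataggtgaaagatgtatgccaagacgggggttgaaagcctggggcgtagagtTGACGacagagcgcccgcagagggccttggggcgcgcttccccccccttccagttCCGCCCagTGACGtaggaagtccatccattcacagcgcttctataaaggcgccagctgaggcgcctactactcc
Jun: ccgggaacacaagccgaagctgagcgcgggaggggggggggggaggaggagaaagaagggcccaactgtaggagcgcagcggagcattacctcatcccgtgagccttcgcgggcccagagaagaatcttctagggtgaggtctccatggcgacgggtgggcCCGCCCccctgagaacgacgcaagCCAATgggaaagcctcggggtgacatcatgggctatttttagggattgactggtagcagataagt
Klf6: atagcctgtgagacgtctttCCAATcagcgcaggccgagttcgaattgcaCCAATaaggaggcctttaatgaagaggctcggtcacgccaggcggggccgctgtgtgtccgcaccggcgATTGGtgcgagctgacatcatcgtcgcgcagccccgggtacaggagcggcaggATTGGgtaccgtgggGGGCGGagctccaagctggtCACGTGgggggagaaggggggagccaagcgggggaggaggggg
The letters searched were GGGCGG (the GC box of Sp and Klf factors), CACGTG (the E-box bound by Myc and its partners), TGACGTCA (the cAMP response element), TGANTCA (the AP-1 site), the CArG box of serum response factor, and, added after the windows were seen, TGACG (contained in TGACGTCA) and CCAAT. A GC box stood in 5 of the 6 windows, against 32.7% of the 32851 promoter windows of this length in the table. Klf6 had an E-box 43 bases before its start, and 6.02% of all windows held 1. TGACG was found in 3 of the 6 windows, among them Fos at 129 and 66 bases before its start, against 17.8% of all windows. CCAAT was found in 4 of the 6, with 4 matches in Klf6 and 1 in Jun, against 33.8% of all windows. No match to the CArG box, TGACGTCA or TGANTCA lay in the 6 windows, where 1.47%, 1.55% and 6.75% of all windows held one. These matches describe the letters alone. Sites farther upstream than the 250 bases, or with other letters, lay outside the search. The search therefore cannot show that these promoters lack such sites.

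Levels are in log2 CPM, read counts relative to the size of the library on a log scale, as the authors deposited them. A library's back-transformed total was 905964 to 1087992 CPM, and its number of reads is unknown. In the check of the targeted genes, Acly ranged from 6.56 to 9.35 log2 CPM in WT and from 4.42 to 6.60 in DKO. Acss2 ranged from 6.12 to 7.45 in WT and from 3.59 to 5.74 in DKO. DKO 1 had the highest DKO level of each (6.60 and 5.74), and its Acly lay above that of WT 5 (6.56). Defining hepatocyte genes were abundant throughout, with Alb between 15.14 and 15.94 log2 CPM. Of 12 hepatocyte markers 9 had a lower mean in DKO and 2 fell, Serpina1c (68.4% of WT, limma adjusted p = 0.0282) and Asgr1 (78.4%, adjusted p = 0.0452). Of all genes, 1.74% were called in either direction and 50.8% had a higher mean in DKO. Leaving out 1 library ended the Serpina1c call for 9 of the 12 libraries and the Asgr1 call for 10, with adjusted p up to 0.0672 and 0.105. Quantile normalization also ended both calls, with an adjusted p of 0.0621 for Serpina1c. The Asgr1 call was lost without the mean trend as well, and its adjusted p in these 2 settings reached 0.277. Whether the libraries are of separate mice is not stated in the labels, and p-values therefore measure only the spread between these libraries, which may be technical.

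The comparison of DKO with WT asks whether the level of these genes in whole liver differs after deletion of Acly and Acss2 in hepatocytes. None of the 9 measured genes passed the test: 0 were called by limma at an adjusted p below 0.05, against a background of 1.74% of all genes called in either direction. Mean levels were higher in DKO for 4 genes (Klf6, Jun, Myc and Atf3) and lower for 5 (Klf10, Fos, Junb, Egr1 and Ier2), and 50.8% of all genes had a higher mean in DKO. The median log2 fold change of the 9 genes was -0.18, beside 0.004 over all genes. At an unadjusted limma p below 0.05 there were 2 of the 9, Klf6 and Jun, both with the higher mean in DKO, where 16.4% of all genes reached that level and 7.95% did so with the higher mean in DKO. The exact permutation test gave 1 gene below 0.05, Klf6. For 0 of the 9 genes were the WT and DKO values fully separated, as they were for 2.17% of all genes.

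**Figure D1:**
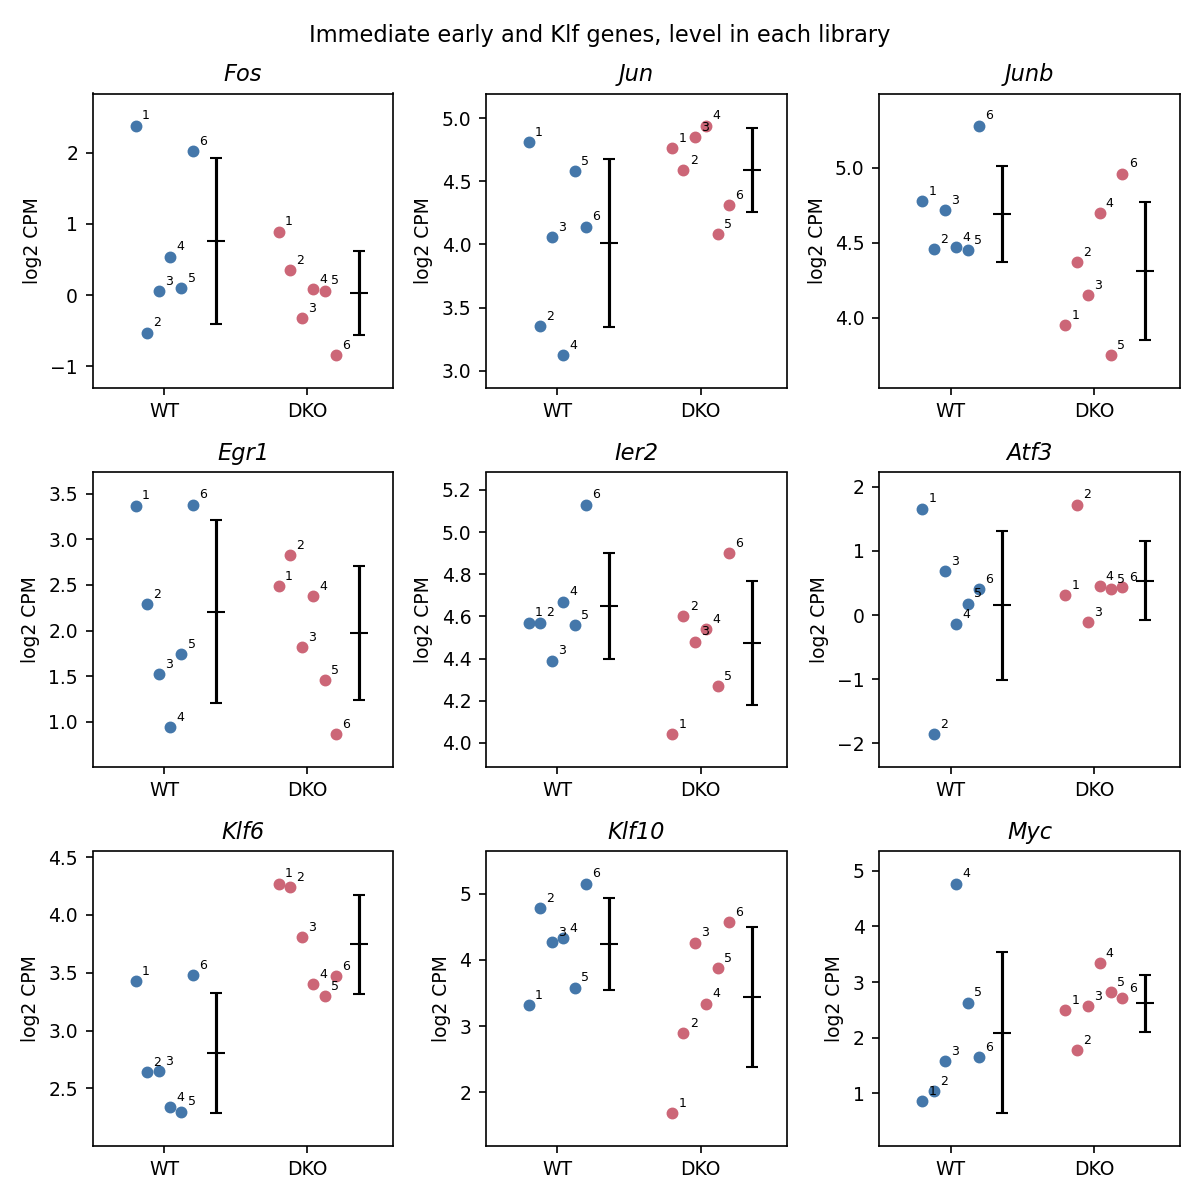
Level of each of the 9 measured genes in log2 CPM (vertical axis, scaled per gene) in the 6 WT and 6 DKO libraries, with the library number beside each point and the group mean ± SD as a black bar. The WT and DKO points overlap in every panel, and the closest to separation is Klf6, where only WT 1 and WT 6 reach the range of DKO.

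Klf6, a zinc finger factor induced by injury in hepatocytes and stellate cells, had the smallest p-value of the set. In WT it ranged from 2.30 to 3.48 log2 CPM with a median of 2.64, and in DKO from 3.30 to 4.27 with a median of 3.64. All 6 DKO libraries lay above the WT mean and 3 lay above the highest WT library. The 2 WT libraries inside the DKO range were WT 1 (3.43) and WT 6 (3.48), and the other WT libraries stood at 2.65 or below. Mean log2 CPM was 2.81 ± 0.52 for WT against 3.75 ± 0.43 for DKO (SD, 6 libraries each), a 1.92-fold difference with a 95% interval of 1.33 to 2.78. On the log2 scale this was 0.94 (SE 0.25), with a limma adjusted p of 0.0728 (unadjusted p = 0.00201) and an exact permutation p of 0.0195. By limma p-value Klf6 stood 339th of 12284 genes. Klf6 passed without WT 1, with a log2 fold change of 1.07 and an adjusted p of 0.0371, which makes 1 of the 9 genes called. Leaving out any other single library gave an adjusted p between 0.0604 and 0.159. With the replicate number as a block in the fit to all 12 libraries, Klf6 also passed (limma adjusted p = 0.0328). What a shared number means is not stated in the labels.

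**Figure D2:**
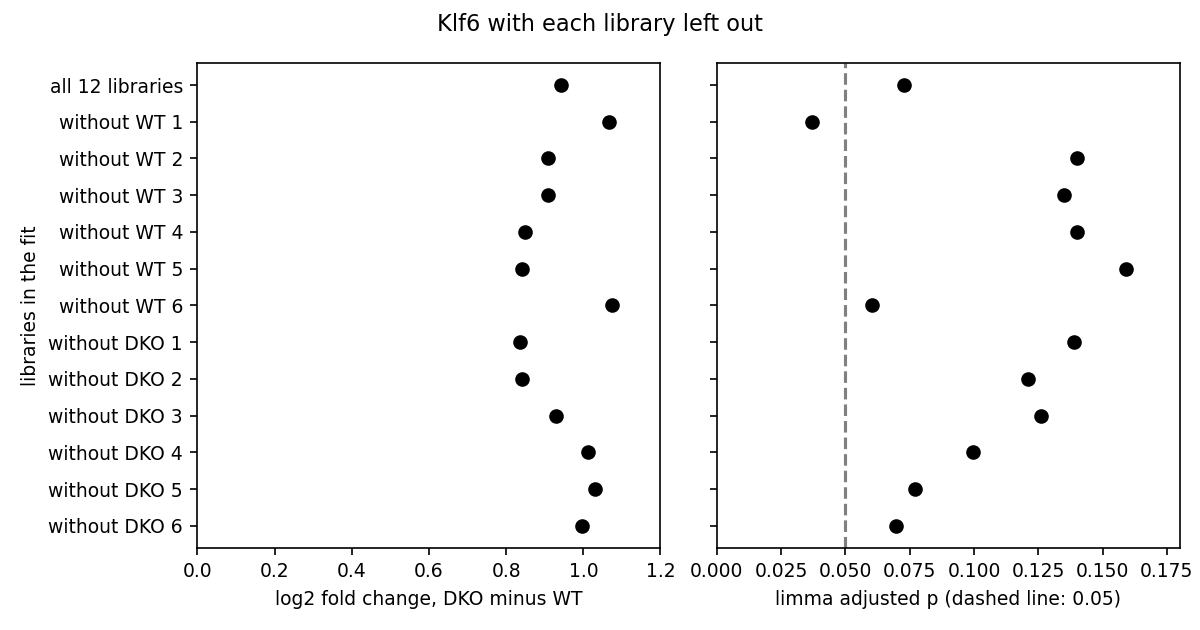
Log2 fold change of Klf6 between DKO and WT (left) and its limma adjusted p (right) in the fit to all 12 libraries and with each library left out (rows). The fold change stays between 0.84 and 1.08, and only the fit without WT 1 falls left of the dashed line at 0.05.

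Klf6 is also expressed in macrophages and stellate cells, and markers of both had higher means in DKO, most of them not called. All 14 macrophage markers had a higher mean in DKO, and 12 of them had an unadjusted limma p below 0.05. Of the 14, 2 rose, Ccr2 (2.65-fold, adjusted p = 0.0244) and Lyz2 (1.93-fold, adjusted p = 0.0357). Over all genes 50.8% had a higher mean in DKO, 7.95% also with an unadjusted limma p below 0.05, and 1.74% were called in either direction. The median of the 14 was 0.60 on the log2 scale. The Ccr2 call was lost after quantile normalization (adjusted p = 0.0518) and when WT 2, WT 3, DKO 3 or DKO 4 was left out, with 0.0604 the highest adjusted p. The Lyz2 call was lost without the mean trend (0.0649) and without any 1 of 9 libraries, all but WT 1, DKO 3 and DKO 6 (adjusted p up to 0.0865). The summed level of the 14 was 366 to 693 CPM in WT and 496 to 805 CPM in DKO, and none of the 14 stood at the lowest value of the table in any library. Within WT the sum was highest in WT 1 (693 CPM) and WT 6 (508 CPM), which were also the WT libraries with the highest Klf6. In DKO the highest sum was in DKO 2 (805 CPM), where Klf6 was 4.24 log2 CPM, and the next in DKO 5 (796 CPM), which had the lowest Klf6, 3.30. The 12 stellate cell and fibroblast markers all had a higher mean in DKO with 0 called by limma (8 at an unadjusted p below 0.05). Reln, Hand2 and Des differed least, by 0.02, 0.06 and 0.11 on the log2 scale, and Col1a1 most, by 1.02. These genes were named after their values were seen. The 12 summed to 280 to 382 CPM in WT and 370.0 to 521 CPM in DKO. The 2 libraries with the highest Klf6 in each group also had the highest stellate sums, WT 6 (382 CPM) and WT 1 (349 CPM), and DKO 2 (521 CPM) and DKO 1 (426 CPM). WT 5 was the lowest WT library in both, with Klf6 at 2.30 log2 CPM and a stellate sum of 280 CPM. DKO 3, with the next highest Klf6 in DKO (3.81 log2 CPM), had the lowest DKO stellate sum, 370.0 CPM. The 10 endothelial markers were likewise all higher, with 0 called by limma and 4 at an unadjusted p below 0.05. Their sums were 302 to 355 CPM in WT and 310 to 417 CPM in DKO. The 5 measured red blood cell markers and the 2 measured neutrophil markers were also all higher, with 0 called by limma. In each of these lists 1 marker had an unadjusted limma p below 0.05, Hba-a2 (1.56-fold) and Mmp9 (3.74-fold). Mmp9 reached the lowest value of the table, -3.26 log2 CPM, in WT, and the red blood cell marker Alas2 differed by only 0.05 on the log2 scale. Of 4 measured lymphocyte markers 2 were higher and 2 lower, with 0 called by limma. Of 4 measured cholangiocyte markers 3 had a higher mean in DKO and 1, Krt7, a lower mean, and Sox9 differed by only 0.009 on the log2 scale. Only Spp1, which encodes osteopontin, rose (1.83-fold, limma adjusted p = 0.0213). Its call was lost without WT 6 or without DKO 1 (adjusted p up to 0.056). The part of these markers in the level of Klf6 was not tested, and in whole liver more cells of a type and more RNA per cell cannot be told apart.

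Klf10, the TGF-beta inducible early gene and a relative of Klf6 that represses transcription, lay lower in DKO on average. Its WT libraries ran from 3.32 to 5.15 log2 CPM with a median of 4.30, and its DKO libraries from 1.68 to 4.57 with a median of 3.61. The lowest value belonged to DKO 1, and the groups overlapped from 3.32 to 4.57. DKO stood at 57.3% of the WT level with a 95% interval of 29.7% to 111% (log2 fold change -0.80, SE 0.44, limma adjusted p = 0.389). Without DKO 1 the log2 fold change was -0.45. The difference between the 2 Klf genes in response was not tested.

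Of the AP-1 subunits, Jun was the closest to a difference. It spanned 3.12 to 4.81 log2 CPM in WT, with a median of 4.10, and 4.08 to 4.94 in DKO, with a median of 4.68. Every DKO library lay above the WT mean, but WT 1 (4.81), WT 5 (4.58) and WT 6 (4.14) were inside the DKO range. Jun was 1.50-fold the WT level (95% interval 1.01 to 2.22, log2 fold change 0.58, SE 0.27), with a limma adjusted p of 0.295 and an exact permutation p of 0.0866.

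Fos, the partner of Jun in AP-1, ranged from -0.53 to 2.38 log2 CPM in WT (median 0.32) and from -0.85 to 0.89 in DKO (median 0.07). WT 1 (2.38) and WT 6 (2.02) stood above all other libraries, and the other 4 WT libraries were within the DKO range. The DKO level was 60.6% of WT, with a 95% interval of 29.1% to 126% (log2 fold change -0.72, SE 0.49, limma adjusted p = 0.503). Leaving out WT 1 brought the log2 fold change to -0.40, and leaving out WT 6 to -0.47.

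Junb, a Jun relative that dampens AP-1 activity, spanned 4.45 to 5.28 log2 CPM in WT (median 4.59) and 3.75 to 4.96 in DKO (median 4.26). In 4 of the 6 DKO libraries it lay below the lowest WT library, and DKO 4 (4.70) and DKO 6 (4.96) were within the WT range. Its log2 fold change was -0.38 (95% interval -0.82 to 0.06, limma adjusted p = 0.374, exact permutation p = 0.123).

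Atf3, a stress-induced repressor of the ATF and CREB family, ran from -1.86 log2 CPM in WT 2 to 1.66 in WT 1 in the control group (median 0.29). Its DKO libraries ran from -0.11 to 1.72 (median 0.42), with 4 of them between 0.31 and 0.45. The log2 fold change of 0.38 (SE 0.50, limma adjusted p = 0.758) turned to -0.02 without WT 2. No direction can be given for this gene.

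Egr1, the zinc finger factor of the early growth response, ranged from 0.94 to 3.38 log2 CPM in WT (median 2.01) and from 0.86 to 2.83 in DKO (median 2.10). The order of the medians was thus the reverse of that of the means, 2.21 ± 1.002 for WT against 1.97 ± 0.73 for DKO (SD, 6 libraries each). WT 1 (3.37) and WT 6 (3.38) were again the highest libraries, and without either of them the log2 fold change went from -0.23 (SE 0.44, limma adjusted p = 0.850) to 0.001. Ier2, a nuclear protein of the serum response, was the least variable: 4.39 to 5.13 log2 CPM in WT and 4.04 to 4.90 in DKO, with medians of 4.57 and 4.51. Its 95% interval ran from 70.9% to 110% of the WT level (limma adjusted p = 0.610), the narrowest of the 9.

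Myc, the E-box factor that drives growth and ribosome production, spanned 0.86 to 4.77 log2 CPM in WT (median 1.61) and 1.78 to 3.34 in DKO (median 2.64). The highest value of either group was in WT 4 (4.77), and 4 of the other 5 WT libraries were below the lowest DKO library. On all 12 libraries the log2 fold change was 0.53 (95% interval -0.63 to 1.69, limma adjusted p = 0.683). Without WT 4 it was 1.07, with an adjusted p of 0.143.

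**Figure D3:**
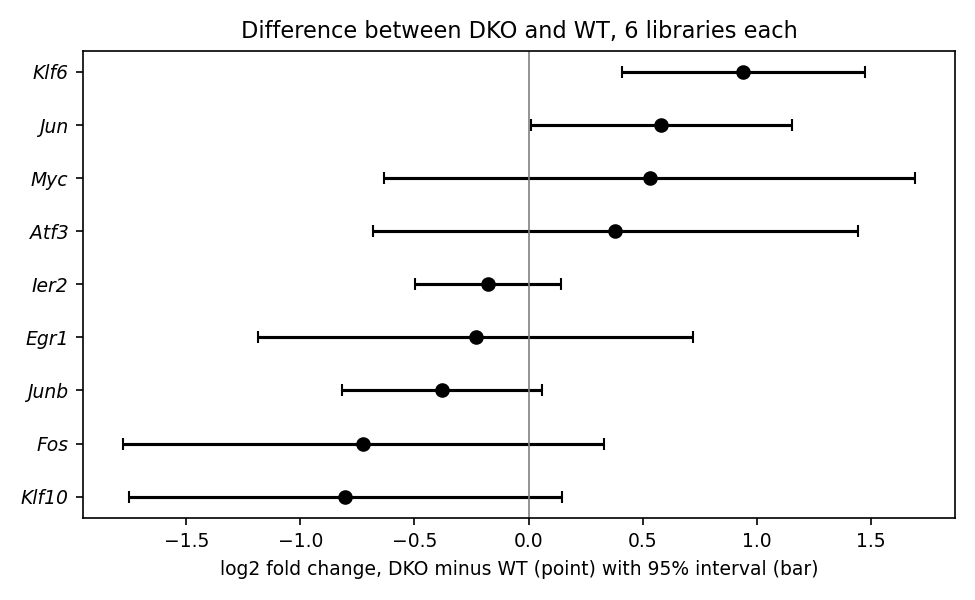
Log2 fold change of each of the 9 genes between DKO and WT (horizontal axis, points) with the 95% interval from limma (bars), ordered by size. The intervals of Klf6 (0.41 to 1.47) and Jun (0.01 to 1.15) lie above 0 before adjustment over all genes, and the other 7 cross it.

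The width of these intervals followed the spread between libraries of one group. The pooled SD within groups was 1.09 log2 CPM for Myc, 0.93 for Fos and for Atf3, 0.89 for Klf10 and 0.88 for Egr1, against a median of 0.28 over all genes. Against genes with a mean within 0.5 log2 CPM of their own, Klf10 varied more than 98.9% of 2206 genes, Myc more than 97.7% of 1483 and Egr1 more than 95.6% of 1384. Jun varied more than 95.1% of 2266 such genes, Junb more than 88.7%, Klf6 more than 84.8%, Fos more than 80.9%, Atf3 more than 80.4% and Ier2 more than 68.9%. So all 9 lay in the more variable part of the genes at their level, Ier2 the least.

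The libraries that stood high were partly the same from gene to gene. WT 6 was the highest WT library for 5 genes (Junb, Egr1, Ier2, Klf6 and Klf10), and WT 1 for 3 (Fos, Jun and Atf3). Each of them was among the 2 highest WT libraries for 6 of the 9 genes, and both were so for Fos, Junb, Egr1 and Klf6. WT 1 was at the same time the lowest WT library for Klf10 and Myc. WT 1 was also the highest WT library for Acly and for Acss2. Among DKO libraries DKO 1 was highest for Acly, Acss2, Fos and Klf6 and lowest for Ier2 and Klf10. In DKO no library led more than 3 genes; DKO 6 was highest for Junb, Ier2 and Klf10 and lowest for Fos and Egr1.

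**Figure D4:**
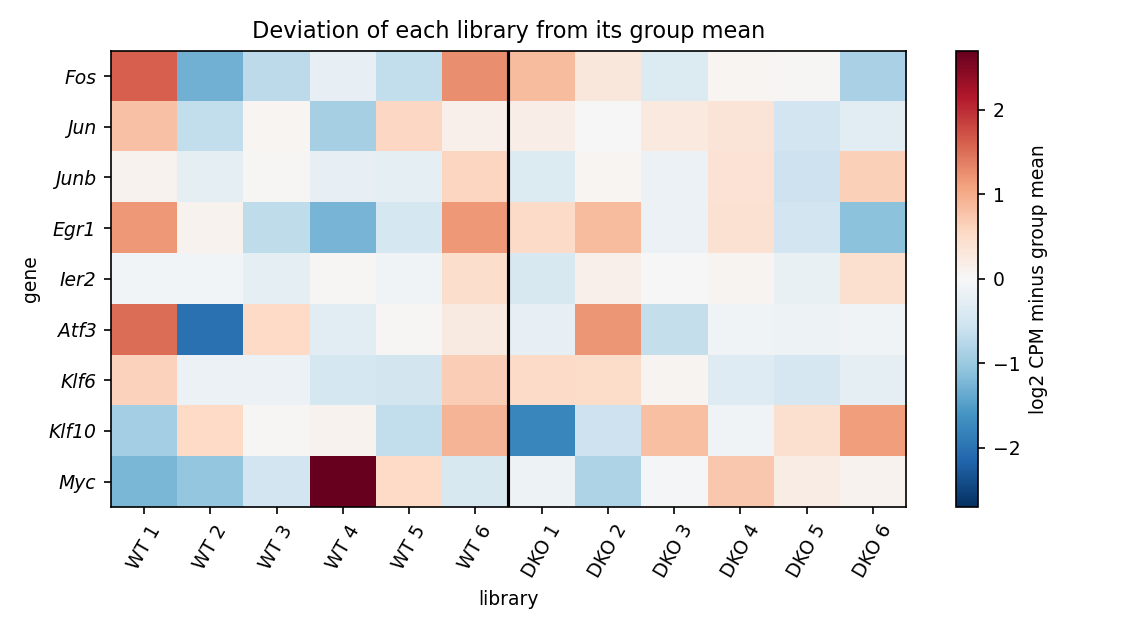
Deviation of each library (columns, WT left of the line and DKO right) from its group mean for each of the 9 genes (rows), in log2 CPM by colour, red above and blue below the mean. WT 1 and WT 6 are red for Fos, Egr1 and Klf6 together, Myc is highest in WT 4, and Klf10 is lowest in DKO 1.

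Apart from the groups, 36 pairs of genes were compared by their deviations from the group means over the 12 libraries, with 24 positive and a median Pearson r of 0.14. By permutation within groups 0 pairs passed after adjustment over the 36, and 7 had an unadjusted Pearson p below 0.05 (Spearman: 0 and 4). The closest was Egr1 with Klf6 (Pearson r = 0.835, permutation p = 0.00341, adjusted p = 0.0884; Spearman rho = 0.769, permutation p = 0.0120, adjusted p = 0.147). Within WT that r was 0.929 and within DKO 0.682, and it was 0.771 without WT 4 and WT 6, the libraries farthest from the median. Junb and Ier2 gave an r of 0.812 (permutation p = 0.00491, adjusted p = 0.0884) and a rho of 0.797 (permutation p = 0.00548, adjusted p = 0.147), with 0.741 within WT and 0.861 within DKO. Without WT 6 and DKO 6 their r was 0.514, so this relation rested in part on those libraries. Fos correlated with Egr1 at 0.746 (permutation p = 0.0171, adjusted p = 0.154; rho = 0.734, permutation p = 0.0188, adjusted p = 0.17), with 0.737 within WT, 0.810 within DKO and 0.515 without WT 1 and WT 6. Klf6 and Myc ran in opposite directions, at -0.611 (permutation p = 0.0423, adjusted p = 0.23; rho = -0.755, permutation p = 0.0123, adjusted p = 0.147), with -0.611 within WT, -0.784 within DKO and -0.536 without WT 1 and WT 6. Fos with Jun, the classical AP-1 pair, gave 0.488 (permutation p = 0.202, adjusted p = 0.464; rho = 0.441, permutation p = 0.218, adjusted p = 0.483), with 0.535 within WT, 0.302 within DKO and 0.245 without WT 1 and WT 6.

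The genes whose deviations over the 12 libraries were most like those of Fos, of all in the table, were Anxa1 (Pearson r = 0.904), Spon2 (0.895), Nfam1 (0.893), Csnk2a2 (0.891) and Ifi204 (0.889). For Klf6 they were Cacybp (0.979), Ppap2a (0.953), Clk3 (0.934) and Kynu (0.922), with 1 more row whose symbol had been turned into a date. For Myc they were Foxq1 (0.878), Mrpl9 (0.874), Zfp429 (0.871), Tomm70a (0.865) and Arel1 (0.848). They were picked as the highest r among 12284 genes over 12 libraries, where high values arise through the picking alone. These r were not tested and are a description only. The difference between DKO and WT passed for none of these named genes, the closest being Nfam1 (log2 fold change 0.98, limma adjusted p = 0.0935).

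Relatives of these genes showed no called difference either. Over all genes 1.74% were called and 16.4% had an unadjusted limma p below 0.05, shares that apply to each list below. In lists as short as these, 0 called is close to that share. Among the other AP-1, ATF and Maf genes 15 of 19 were measured, 8 higher and 7 lower in DKO, and the list's median log2 fold change was 0.05, with 0 called by limma (2 at an unadjusted p below 0.05). Mafg, a small Maf partner of Nrf2 and Bach1, had the smallest p, at 83.7% of WT (adjusted p = 0.212). Jund, the Jun relative that is made constitutively, was at 1.19-fold the WT level (limma adjusted p = 0.364; named after its value was seen).

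In the wider list of rapidly induced genes, 40 of 45 were measured, and 20 were higher and 20 lower in DKO. Their median log2 fold change was 0.005, and 0 were called by limma (3 at an unadjusted p below 0.05). Zfp36l2, which promotes decay of AU-rich mRNAs, was closest, at 69.8% of WT (-0.52 on the log2 scale, SE 0.16, adjusted p = 0.121, and 0.0489 without DKO 6). The other 2 at an unadjusted p below 0.05, Btg2 and Ctgf, had higher means in DKO and were named after their values were seen. Btg2, an antiproliferative gene, was at 2.40 to 3.42 log2 CPM in WT and 3.42 to 4.26 in DKO, with the highest WT and the lowest DKO library equal to 2 decimals (adjusted p = 0.127). Ctgf, the connective tissue growth factor, was 1.62-fold the WT level (adjusted p = 0.273). Dusp1, the phosphatase that ends MAPK signals, had a log2 fold change of -0.06 (adjusted p = 0.956), and Nr4a1, an early nuclear receptor, 0.29 (adjusted p = 0.884), both named after their values were seen.

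For the remaining Klf and Sp genes, 15 of 20 were measured, with 6 higher, 9 lower and 0 called by limma (1 at an unadjusted p below 0.05), and a median log2 fold change of -0.10. Klf7 had the smallest p, at 1.47-fold the WT level (log2 fold change 0.55, SE 0.22, adjusted p = 0.225). Klf9 and Klf15, glucocorticoid-responsive genes of hepatic metabolism, were each at -0.21 on the log2 scale (adjusted p = 0.550 and 0.496), and Klf2 and Klf4 at -0.07 and 0.16 (adjusted p = 0.929 and 0.849). Klf1, the erythroid factor, had the widest range: its libraries ran from the lowest value of the table, -3.26 log2 CPM, to 2.94 in WT and from the same lowest value to 1.64 in DKO (adjusted p = 0.325). All of these but Klf7 were named after their values were seen.

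None of the measured Myc partners and targets passed the test. Of 12 measured genes of the Myc, Max and Mxd network 8 were higher, 4 were lower and 0 called by limma (1 at an unadjusted p below 0.05), with Bin1, a Myc-interacting protein, closest (log2 fold change 1.03, SE 0.41, adjusted p = 0.221). Among 20 measured Myc target genes 13 were higher and 7 lower, where 50.8% of all genes were higher; 0 were called by limma and 4 had an unadjusted p below 0.05, with a median log2 fold change of 0.05. Nop58, a core protein of the snoRNPs that modify ribosomal RNA, was 1.45-fold the WT level (log2 fold change 0.54, SE 0.16, adjusted p = 0.0985), and 0.0466 without WT 1.

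Upstream of the immediate early genes, 30 of 32 kinases, receptors and transcription factors were measured, 19 higher and 11 lower in DKO, with 0 called by limma (4 at an unadjusted p below 0.05) and a median log2 fold change of 0.04. Mkl2, a coactivator of serum response factor, had the smallest p (log2 fold change 0.27, SE 0.10, adjusted p = 0.167). Srf itself, named after its value was seen, differed by 0.06 (adjusted p = 0.846).

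**Figure D5:**
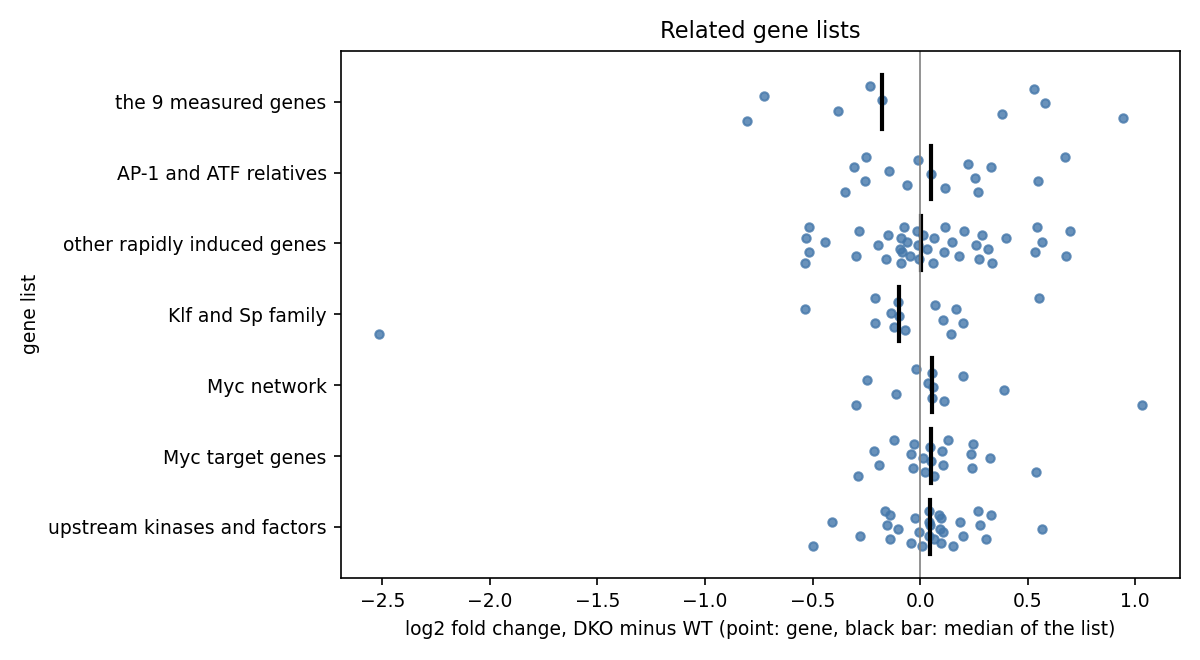
Log2 fold change between DKO and WT (horizontal axis) of each measured gene (points) in the set of 9 and in 6 lists of related genes (rows), with the median of each list as a black bar. Medians lie between -0.18 and 0.06, and the farthest single point is Klf1 at -2.51.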

How the data were processed

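Polyadenylated RNA of 12 mouse liver libraries, 6 WT and 6 DKO by their genotype labels, was analysed from 1 table. The authors deposited log2 CPM, filtered and normalized between libraries per the file name. Neither their filter nor their added count or scaling is stated in the labels. Kallisto 0.46.2, edgeR, limma and the build GRCm39 (mm39) are listed, without a role, per the submitters' processing notes. Of 12285 rows, 1 without a name (at most 0.0148% of a library's CPM) was left out.

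All 12284 named rows were fitted with limma 3.58.1 in R 4.3.3 (lmFit, eBayes with the mean trend, 2-sided, no covariate or filter), with Benjamini-Hochberg adjustment over all of them. Genes were called at an adjusted p below 0.05, and "rose" is used only of called genes. Intervals are 95% intervals of this fit. Single genes were compared by 2-sided exact permutation over the 924 divisions into 6 and 6, whose smallest p is 0.00216. Pairs of genes were tested by 100000 permutations within groups, 2-sided, adjusted over 36 pairs. The fit and the pair test were tested on simulated data. Python 3.11.15 and matplotlib 3.10.9 were used.

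The genes and the related lists were chosen with earlier results of these data known. Named genes were all members, the called genes (up to 3) and the smallest p of each related list, and the 5 genes most like Fos, Klf6 and Myc. Older symbols were matched through RefSeq for 6 list genes. RefSeq promoters are of build GRCm38.p6, another build than the processing notes name, and were matched by symbol only. Alternatives were limma without the trend, robust limma, array weights, log2(CPM + 1), median centring, a minimum mean of 1 or of 3 log2 CPM, quantile normalization, the replicate number as a block, and leaving out each library. The depth is unknown, so precision rests on the spread between libraries.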

Additional observations from a re-analysis of the deposited data

Results flagged for a closer look

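Atf3 in DKO 2 stood apart from the other DKO libraries, at 1.72 log2 CPM against 0.45 for the next highest. The gap was 0.698 of the range of the group, above Dixon's 95% critical value of 0.625 for 6 samples. It was the only such value among 18 groups (9 genes in 2 groups). Chance flags about 1 in 20 groups, so 1 flag among 18 is about what chance alone gives.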

How the results depend on the processing

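Of 183 values of the 9 genes under other settings or with 1 library left out, 180 kept their direction. The exceptions, on the log2 scale, were Egr1, at 0.001 without WT 1 and without WT 6 (range with 1 library left out -0.485 to 0.001), and Atf3, at -0.023 without WT 2 (range -0.023 to 0.682). The number of the 9 genes called was 0 or 1 with single libraries left out. Over all genes, 214 were called, and 138 without the mean trend, 109 after quantile normalization, 356 with array weights and between 92 and 373 with 1 library left out. With the replicate number as a block 397 genes were called, and 1 of the 9, Klf6 (limma adjusted p = 0.0328). The labels do not say what a shared number means. Same-numbered WT and DKO libraries had correlations of their deviations from the group mean between -0.077 and 0.287. By that measure 4 of 6 WT and 3 of 6 DKO libraries were closest to the library of their own number. These values do not settle whether the numbers mark pairs, and the main fit was left without a block because the labels name none. The block changed no other call among the 9. Outside the block and the fits without 1 library, the adjusted p of Klf6 ranged from 0.058 to 0.115. The count of pairs that passed was 0 in each scaling tried. Without read depth, counting error cannot be separated from the spread between libraries.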
